A study of Mus musculus with 6 samples.

Results

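The genes described here are 10 mouse genes used as signs of neutrophils in tissue, among them the 2 subunits of calprotectin. They were picked by symbol after the gene identifiers of the deposited table had been matched to mouse symbols, and 9 of the 10 were found among its 21374 genes. The 6 libraries are bulk RNA sequencing of distal colon next to tumours. The male C57BL/6 mice carried the label Otud1-/- in 3 libraries, and wild type in the other 3. All mice had been given the colon carcinogen azoxymethane (AOM) on day 0 at 6 weeks of age and then 3 rounds of 1.5% dextran sulfate sodium (DSS), a polymer that injures the colonic lining, for 4 days with 14 days of water, and the tissue was collected on day 81 at 18 weeks. There was no group without AOM and DSS. The sources used here do not give how the Otud1 allele was made or whether animals were pooled.

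Neutrophils are short-lived granulocytes that leave the blood for injured or infected tissue. Their granules are filled in a fixed order during maturation in the bone marrow: myeloperoxidase is made early, then Camp and Ngp, while S100a8, S100a9 and Csf3r remain expressed in the mature cell. Calprotectin, the complex of S100A8 and S100A9, binds calcium, withholds zinc and manganese from microbes, and is measured in stool as a sign of intestinal inflammation. Granulocyte colony-stimulating factor (G-CSF, encoded by Csf3) drives the output and survival of neutrophils through its receptor, encoded by Csf3r.

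The libraries held 15300937 to 19406407 reads assigned to genes. Values are normalised read counts, that is, reads of a gene divided by the size factor of its library, unless a sentence says otherwise. Otud1 itself went against the labels, with 141, 150 and 208 normalised reads in the libraries labelled Otud1-/-, against 111, 45.1 and 48.9 in those labelled wild type (log2 change 1.37 ± 0.35 SE, limma with Benjamini-Hochberg adjustment, adjusted p = 0.0934). The same direction passed the threshold with DESeq2 (1.29, adjusted p = 0.0148), with sample weights in limma (1.59, adjusted p = 0.0442) and without replicate 1 of both labels (1.89, limma, adjusted p = 0.00495), 3 of 18 alternative settings, over which the adjusted p ranged from 0.00495 to 0.258. The part of the gene that was deleted is not stated, and all directions below are those between libraries as labelled. Wild type 1 and Otud1-/- 1 lay farthest apart on the first principal component (86.5 and -83.3, with the other libraries between -28.2 and 25.8), so results are also given without both. The marker genes of colon epithelium were all present, which fits the labelled tissue. Their summed level was 222505 to 374591 in libraries labelled Otud1-/- and 364301 to 428953 in those labelled wild type. That of the smooth muscle markers was 49017 to 103708 in libraries labelled Otud1-/- and 29636 to 32552 in those labelled wild type. The part of this difference in tissue make-up in the results below was not tested.

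In the libraries labelled Otud1-/-, the calprotectin subunit gene S100a8 and the G-CSF receptor gene Csf3r were lower in every library, and Retnlg and Ngp were higher in every library, than in those labelled wild type. S100a9, Csf3, Trem1, Clec4d and Camp overlapped between the labels. None of the 9 members passed the test across all genes (limma, adjusted p under 0.05), which called 202 of 21281 genes, or 0.949% (0.667% lower and 0.282% higher in libraries labelled Otud1-/-). At an unadjusted p under 0.05 there were 4 of the 9 members, against 19.5% of all genes. The edgeR quasi-likelihood test on reads recovered from the values called 0 of the 7 members it gave a value (0.37% of 16742 genes), and DESeq2 called 2 of 7, S100a8 and Csf3r (8.4% of 16803 genes). Neither gave an adjusted p for Ngp and Camp. Limma without replicate 1 of both labels called 1 member, S100a8 (1.9% of 20687 genes), with Ngp and Camp again not tested, while sample weights and the replicate number as a block called 0 (2.65% and 0.0846% of all genes). The labels did not overlap for 2 members that were lower in libraries labelled Otud1-/- and 2 that were higher, while 13.3% and 13% of all tested genes, 26.3% together, did so. Ngp passed the filter on low values only through the libraries labelled Otud1-/-, so that its place among these counts is partly set by the filter. Of the other 8 members, 3 were at an unadjusted p under 0.05, 2 were lower and 1 higher without overlap, and the median log2 change was -0.45, against 0.02 over all tested genes. In such bulk samples fewer cells of a type and less RNA per cell cannot be told apart.

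**Figure D1:**
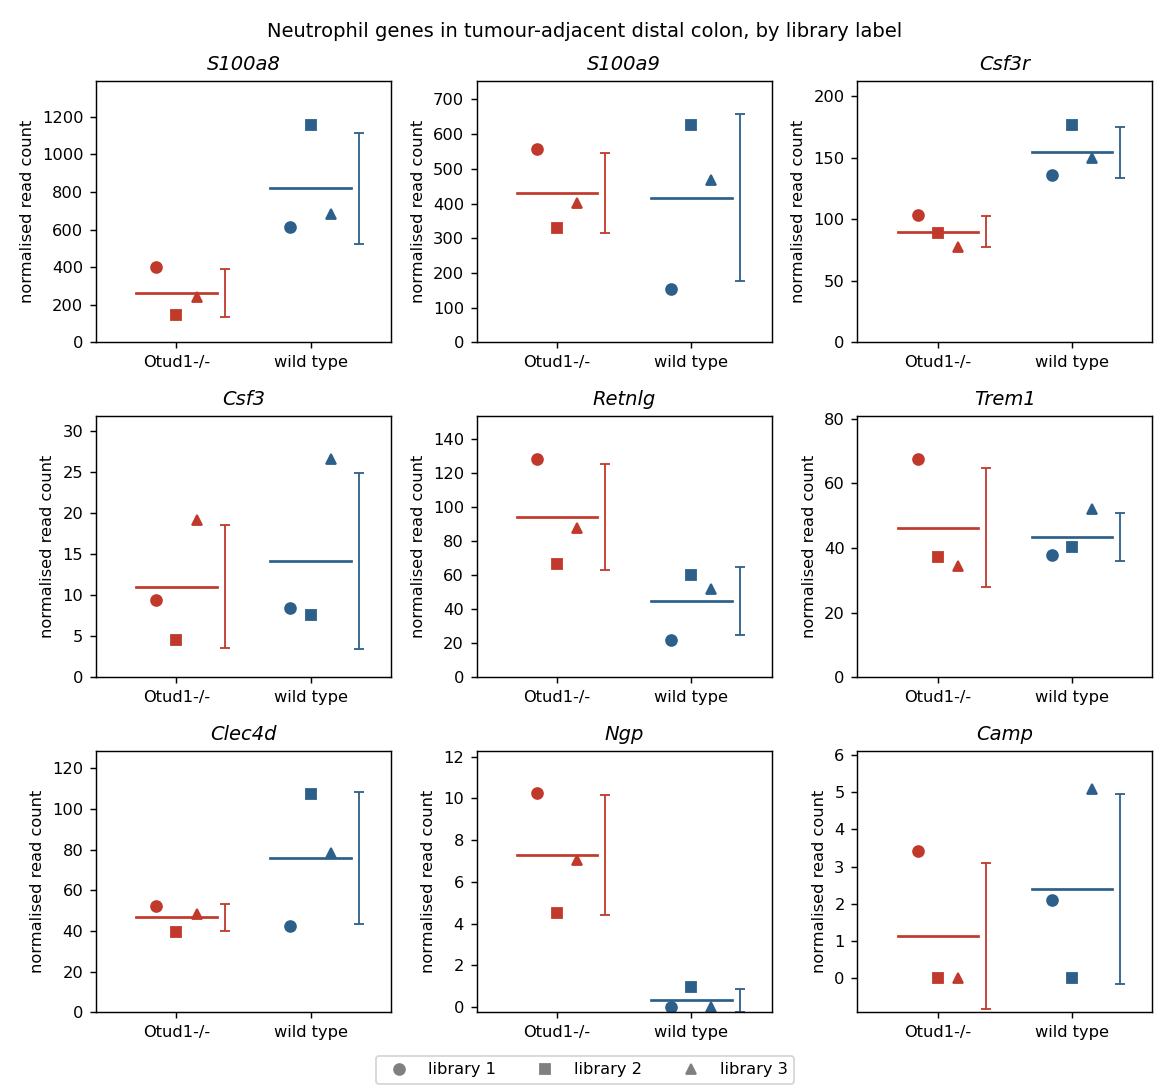
Normalised read count (vertical axis, from 0 or below it where an SD bar reaches lower) of each member in every library, grouped by label. Points are libraries, horizontal bars means and vertical bars SDs (n = 3). S100a8 and Csf3r lie lower in all libraries labelled Otud1-/-, Retnlg and Ngp lie higher, and the other members overlap.

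S100a8 encodes the smaller calprotectin subunit. It had 401, 144 and 242 normalised reads in the libraries labelled Otud1-/-, against 616, 1159 and 685 in those labelled wild type. The highest library labelled Otud1-/- thus lay below the lowest labelled wild type. The means were 262 ± 130 under the label Otud1-/- and 820 ± 295 under wild type (SD, n = 3 each), and the log2 change was -1.70 ± 0.42 SE (limma, adjusted p = 0.111). By exact permutation of the labels, two-sided, p was 0.1, which is the minimum for 3 and 3 libraries. The adjusted p was 0.000462 with DESeq2 and 0.0494 without replicate 1 of both labels (change -2.25), within a range of 0.000462 to 0.309 over 18 alternative settings.

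S100a9 encodes the other subunit, and its values overlapped between the labels. Its normalised reads were 557, 331 and 402 in the libraries labelled Otud1-/-, against 155, 627 and 469 in those labelled wild type, so that the wild type range enclosed the other. The means were 430 ± 116 under the label Otud1-/- and 417 ± 240 under wild type (SD, n = 3 each), with a log2 change of 0.23 ± 0.56 SE (limma, adjusted p = 0.862). The sign rested on wild type 1, the library with the lowest value: without it the change was -0.37, and without replicate 1 of both labels -0.57 (limma, adjusted p = 0.543 and 0.179).

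The 2 genes lie in the same cluster of S100 genes on chromosome 3, S100a8 (ENSMUSG00000056054.9) on the plus strand at 90668978 to 90670035 and S100a9 (ENSMUSG00000056071.12) on the minus strand at 90692632 to 90695721 in GRCm38, with 22596 bases between them. Their RefSeq promoter windows (GRCm38.p6, 250 bases before to 50 after the start site, 5′ to 3′ on the gene's strand) are shown because S100a8 separated the labels while its partner did not. The S100a8 window is chr3:90668821-90669120 and that of S100a9 is chr3:90695672-90695971. Capitals mark matches, on either strand, to 4 letter patterns: the TATA box TATAAA, the C/EBP-type TTNNGNAA, the PU.1-type GAGGAA and the STAT-type TTCNNNGAA.
S100a8: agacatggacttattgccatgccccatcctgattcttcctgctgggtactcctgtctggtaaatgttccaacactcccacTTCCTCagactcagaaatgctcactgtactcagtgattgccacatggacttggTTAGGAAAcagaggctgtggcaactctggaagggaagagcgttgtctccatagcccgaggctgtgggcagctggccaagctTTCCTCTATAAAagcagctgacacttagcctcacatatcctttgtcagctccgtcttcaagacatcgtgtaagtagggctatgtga
S100a9: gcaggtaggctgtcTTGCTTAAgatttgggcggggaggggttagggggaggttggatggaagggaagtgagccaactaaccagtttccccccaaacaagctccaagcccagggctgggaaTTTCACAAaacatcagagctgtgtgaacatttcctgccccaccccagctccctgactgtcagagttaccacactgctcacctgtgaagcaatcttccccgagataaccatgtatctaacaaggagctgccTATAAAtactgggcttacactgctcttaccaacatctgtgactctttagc
Both windows held TATAAA, as did 13.6% of all 32851 promoter windows of this length. The match began 30 bases before the start site in S100a8 but at the annotated start site itself in S100a9. In S100a8 TATAAA followed directly on a PU.1-type match, which makes 1 run of capitals. The C/EBP-type letters occurred 1 time in S100a8 and 2 times in S100a9, and were present in 40.7% of all windows. The PU.1-type letters occurred 2 times in S100a8 and 0 times in S100a9 (28.3% of all windows), and neither window held the STAT-type letters (8.3% of all windows). These are matches of letters and do not show binding.

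Per length of exon, the order of the calprotectin genes was opposite under the labels. Levels per kilobase of exon were 578 for S100a8 and 1068 for S100a9 in Otud1-/- 1, 208 and 634 in Otud1-/- 2, and 349 and 769 in Otud1-/- 3. In the libraries labelled wild type they were 888 for S100a8 and 297 for S100a9 in replicate 1, 1670 and 1202 in replicate 2, and 987 and 899 in replicate 3. S100a8 was thus the lower of the pair in each library labelled Otud1-/- and the higher in each labelled wild type, although narrowly so in wild type 3. The ratio of S100a8 to S100a9 per kilobase was 0.541, 0.327 and 0.454 in the libraries labelled Otud1-/-, against 2.99, 1.39 and 1.1 in those labelled wild type. On the log2 scale the ratio averaged -1.21 ± 0.37 under the label Otud1-/- and 0.73 ± 0.75 under wild type (SD, n = 3 each), a difference of -1.94 ± 0.48 SE (exact two-sided permutation p = 0.1, the smallest possible here). A ratio within a library does not depend on the size factor, but it shows only that the pair differed unequally, not which of them did.

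**Figure D2:**
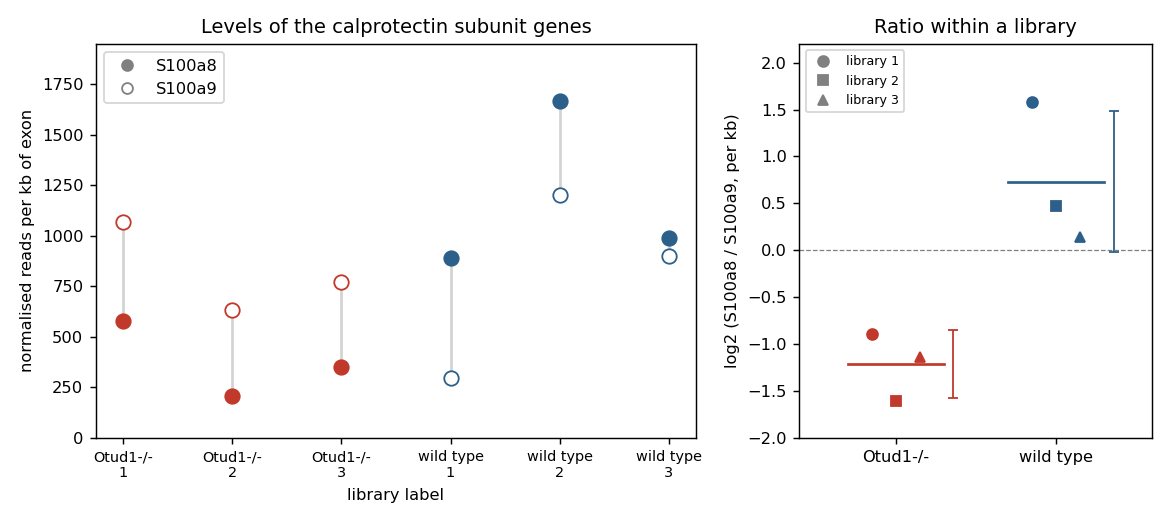
Left, normalised reads per kilobase of exon of S100a8 (filled) and S100a9 (open) in each library. Right, the log2 ratio of the 2 levels in each library by label, with means and SDs (n = 3). All 3 ratios are below 0 in libraries labelled Otud1-/- and above 0 in those labelled wild type.

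The summed calprotectin reads were 958, 475 and 644 in the libraries labelled Otud1-/-, against 771, 1786 and 1154 in those labelled wild type, and these ranges overlapped.

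On the signalling side, Csf3r (ENSMUSG00000028859.14, chromosome 4, 126024550 to 126044440), the receptor through which G-CSF acts on neutrophils, had 103, 88.9 and 77.7 normalised reads in the libraries labelled Otud1-/-, against 136, 177 and 150 in those labelled wild type. The labels did not overlap. The means were 90.0 ± 12.8 under the label Otud1-/- and 154 ± 20.7 under wild type (SD, n = 3 each), with a log2 change of -0.77 ± 0.21 SE (limma, adjusted p = 0.109), and DESeq2 gave an adjusted p of 0.0296. Over 18 alternative settings the change lay between -0.96 and -0.57 and the adjusted p between 0.0296 and 0.278. Its promoter window, chr4:126024409-126024708, is shown for comparison with S100a8, since both were lower in every library labelled Otud1-/-.
Csf3r: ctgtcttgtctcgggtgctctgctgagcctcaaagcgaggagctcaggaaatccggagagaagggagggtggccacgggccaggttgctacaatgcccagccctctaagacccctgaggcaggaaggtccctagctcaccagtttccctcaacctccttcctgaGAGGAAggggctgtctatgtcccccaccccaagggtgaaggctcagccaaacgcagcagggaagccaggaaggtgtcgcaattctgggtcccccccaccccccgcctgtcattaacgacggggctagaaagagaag
It held 1 PU.1-type match, letters present in 28.3% of all windows, and none of the other 3 patterns. Among members that overlapped between the labels, the PU.1-type letters occurred 3 times in Clec4d, 1 time in Trem1 and 0 times in S100a9 and Camp.

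Csf3, the ligand gene (ENSMUSG00000038067.2, chromosome 11, 98701263 to 98703629), was near the lower end of detection. It had 9.39, 4.50 and 19.2 normalised reads in the libraries labelled Otud1-/-, against 8.44, 7.52 and 26.5 in those labelled wild type. In both labels replicate 3 held the highest value, and the ranges overlapped. The recovered reads summed to 34 under the label Otud1-/- and 42 under wild type, a ratio of 0.794 with an exact 95% interval of 0.49 to 1.28 that covers counting error only. The log2 change was -0.31 ± 0.63 SE (limma, adjusted p = 0.825), and it became 0.23 without wild type 3, 0.15 without Otud1-/- 2 and 0.15 with sample weights.

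Of the surface receptors, Clec4d (ENSMUSG00000030144.4, chromosome 6, 123262111 to 123275265), a C-type lectin of myeloid cells that signals through the Fc receptor gamma chain, had 52.1, 39.4 and 48.4 normalised reads in the libraries labelled Otud1-/-, against 42.2, 107 and 78.5 in those labelled wild type. Wild type 1 fell inside the other range. The log2 change was -0.60 ± 0.36 SE (limma, adjusted p = 0.381), -0.97 without wild type 1 and -0.31 without wild type 2. Trem1 (ENSMUSG00000042265.13, chromosome 17, 48232768 to 48246924), which amplifies inflammatory signals in neutrophils and monocytes through the adaptor Tyrobp, had 67.4, 37.1 and 34.3 in the libraries labelled Otud1-/-, against 38.0, 40.4 and 52.0 in those labelled wild type. The values overlapped, with a log2 change of 0.04 ± 0.33 SE (limma, adjusted p = 0.968), which was -0.26 without Otud1-/- 1, -0.05 without wild type 1, -0.01 without wild type 2 and -0.13 after quantile normalisation. Trem1 overlaps an unnamed gene on the opposite strand (AC241601.2), and whether the counting used strand is not stated.

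Retnlg (ENSMUSG00000022651.5, chromosome 16, 48872621 to 48874496) encodes a resistin-like protein that in the mouse is made by neutrophils and their precursors. Its normalised reads were 128, 66.4 and 87.8 in the libraries labelled Otud1-/-, against 22.2, 60.2 and 52.0 in those labelled wild type. All libraries labelled Otud1-/- lay above the others, although Otud1-/- 2 and wild type 2 were close. The means were 94.1 ± 31.3 under the label Otud1-/- and 44.8 ± 20.02 under wild type (SD, n = 3 each), with a log2 change of 1.12 ± 0.41 SE (limma, adjusted p = 0.187). It was 0.69 without wild type 1 and 0.44 without replicate 1 of both labels (limma, adjusted p = 0.414 and 0.591).

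Ngp (ENSMUSG00000032484.8, chromosome 9, 110419747 to 110423012) encodes a cathelicidin-related protein of neutrophil secondary granules, and Camp (ENSMUSG00000038357.10, chromosome 9, 109847379 to 109849617) the mouse cathelicidin, an antimicrobial peptide precursor of the same granules. Ngp rested on few reads, 12, 4 and 7 in the libraries labelled Otud1-/- (10.2, 4.50 and 7.06 normalised), against 0, 1 and 0 in those labelled wild type. Every library labelled Otud1-/- was thus above every other, but a gene this low could pass the filter only where it was high. The summed reads, 23 under the label Otud1-/- and 1 under wild type, gave a ratio of 22.6 after scaling by size factors, with an exact 95% interval of 3.66 to 929 for counting error alone. On the log2 scale with a pseudocount of 1 the change was 2.67 ± 0.64 SE (limma, adjusted p = 0.0833), and it was 5.0 with a pseudocount of 0.1 and 1.19 with 5. Camp had 4, 0 and 0 reads in the libraries labelled Otud1-/-, against 2, 0 and 5 in those labelled wild type. Both labels thus held libraries without a read, where a count of 0 allows up to 3.37 normalised reads in Otud1-/- 2, 3.03 in Otud1-/- 3 and 2.82 in wild type 2. The change of Camp, -0.70 ± 0.95 SE (limma, adjusted p = 0.728), was not detectable at this depth.

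The windows of Retnlg (chr16:48872358-48872657) and Ngp (chr9:110419558-110419857) are shown because these were the members that stood higher in every library labelled Otud1-/-.
Retnlg: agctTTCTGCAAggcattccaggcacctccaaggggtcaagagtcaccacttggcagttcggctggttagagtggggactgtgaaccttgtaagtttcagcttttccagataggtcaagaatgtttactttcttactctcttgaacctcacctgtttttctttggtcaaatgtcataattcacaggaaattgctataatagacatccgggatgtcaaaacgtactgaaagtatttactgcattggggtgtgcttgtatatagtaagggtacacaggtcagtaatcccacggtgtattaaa
Ngp: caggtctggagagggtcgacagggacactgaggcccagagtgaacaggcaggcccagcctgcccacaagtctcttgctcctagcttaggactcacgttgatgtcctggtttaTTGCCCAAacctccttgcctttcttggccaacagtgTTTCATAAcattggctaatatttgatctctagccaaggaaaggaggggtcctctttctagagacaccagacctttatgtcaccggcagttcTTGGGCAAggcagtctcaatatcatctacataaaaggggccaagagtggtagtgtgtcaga
Neither held TATAAA, the PU.1-type or the STAT-type letters. The C/EBP-type letters occurred 1 time in Retnlg and 3 times in Ngp. Of the 10 member genes 9 had a RefSeq window.

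Mpo, the gene of myeloperoxidase of the primary granules, was not among the rows of the table used here, in which each gene had at least 10 reads over the 6 libraries, and no value is given for it. Of the other listed granule and precursor genes of neutrophils, Elane, Ctsg, Cebpe, Fcnb and Ms4a3 were likewise not among the rows. Prtn3, a primary granule protease, had 2.56, 9.0 and 5.05 normalised reads in the libraries labelled Otud1-/-, against 6.33, 6.58 and 5.10 in those labelled wild type, which overlapped. At 3 to 8 recovered reads a library, no difference was detectable at this depth.

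The members also varied within each label. Within the label Otud1-/-, replicate 1 was the highest library for 8 of 9 members, all but Csf3, and within wild type replicate 1 was the lowest for 6 of 9 (S100a8, S100a9, Csf3r, Retnlg, Trem1 and Clec4d). These are also the libraries farthest apart over all genes. How often all tested genes ranked them so, within a label or among the 6 libraries, was not counted. Wild type 2 was the highest library of its label for 6 members. Of 14 tested neutrophil attractants and growth factors, Otud1-/- 1 was the highest of the 6 libraries for 7, of which a pair is given here, chosen after their values were seen. Cxcl1 had 731, 217 and 333 normalised reads in the libraries labelled Otud1-/-, against 202, 472 and 531 in those labelled wild type. Cxcl2 had 1107, 223 and 226 in the libraries labelled Otud1-/-, against 122, 406 and 417 in those labelled wild type. Keratin 14, a marker of squamous epithelium, had 1119, 227 and 156 in the libraries labelled Otud1-/-, against 22.2, 113 and 283 in those labelled wild type. Of the other tested squamous markers, Krt13, Krt6a, Krt4 and Dsg3 were also highest of the 6 libraries in Otud1-/- 1. Sprr1a (284) and Krt6b (3.41) were lowest in that library, and Krt15 and Krt5 were highest in another. Keratin 14 and these markers were named here after their values were seen, and their part in the member values was not tested.

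**Figure D3:**
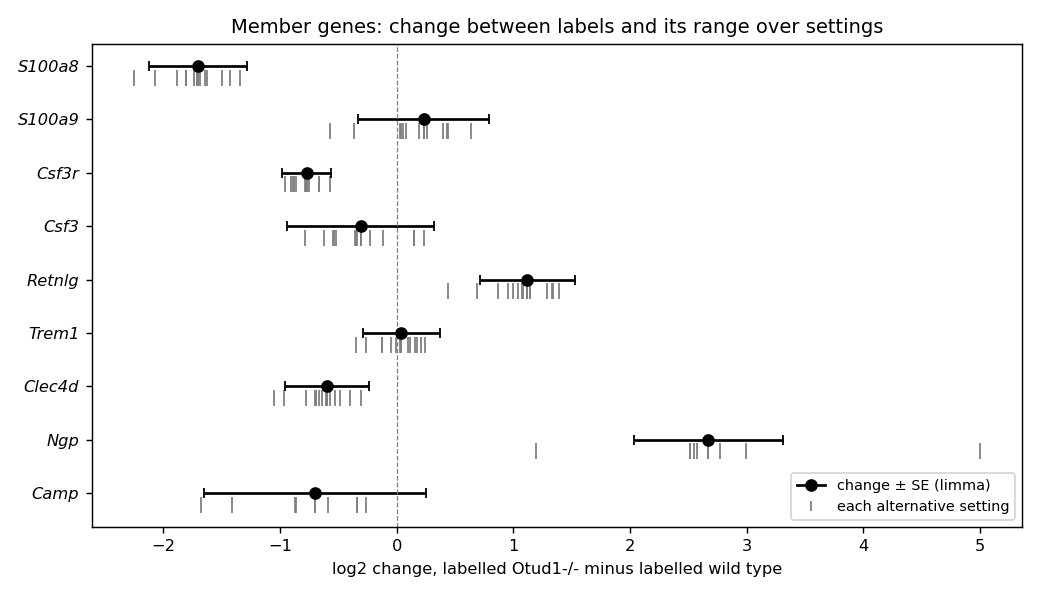
Log2 change of each member, labelled Otud1-/- minus labelled wild type (horizontal axis), as black points with SEs, and its value under each alternative setting as grey ticks. S100a8 stays between -2.25 and -1.34 and Csf3r between -0.96 and -0.57, while the ticks of S100a9, Csf3 and Trem1 lie on both sides of 0.

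To see whether members kept their proportions, S100a8, S100a9, Retnlg, Trem1 and Clec4d were each divided by Csf3r in the same library. Csf3, Ngp and Camp were not divided. S100a8 had 3.88, 1.62 and 3.12 reads for each Csf3r read in the libraries labelled Otud1-/-, against 4.53, 6.55 and 4.57 in those labelled wild type. S100a9 went the other way, with 5.40, 3.72 and 5.17 in the libraries labelled Otud1-/-, against 1.14, 3.55 and 3.13 in those labelled wild type. None of these values overlapped between the labels. Retnlg had 1.24, 0.747 and 1.13 in the libraries labelled Otud1-/-, against 0.163, 0.340 and 0.347 in those labelled wild type. Trem1 had 0.653, 0.418 and 0.442 in the libraries labelled Otud1-/-, against 0.279, 0.229 and 0.347 in those labelled wild type. Both were again apart. Clec4d overlapped, with 0.504, 0.443 and 0.623 in the libraries labelled Otud1-/-, against 0.310, 0.606 and 0.524 in those labelled wild type. Since Csf3r was itself lower in every library labelled Otud1-/-, dividing by it raises the ratios there, and Trem1 and S100a9, which overlapped on their own, were apart only as ratios. No test was made of these ratios.

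**Figure D4:**
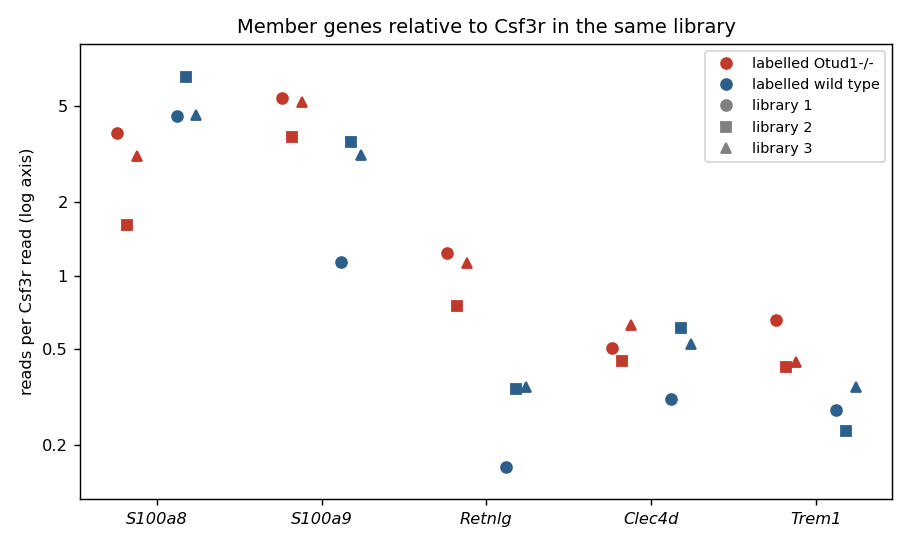
Normalised reads of 5 members for each Csf3r read of the same library (log axis), with the libraries labelled Otud1-/- to the left of those labelled wild type. S100a8 lies lower and S100a9, Retnlg and Trem1 lie higher in the libraries labelled Otud1-/-, and Clec4d overlaps.

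Profiles over the 6 libraries were compared among named genes other than the members, with a mean of at least 10 (14110 genes). Those most like Csf3r were Sytl2, Il1b, Ttyh1, Nfkbia and Pdk1. The centred log2 values of these genes differed from those of Csf3r by 0.07 to 0.13 (root mean square). The genes most like S100a9 included Stx19, Fcrls, Nim1k and Aunip, at 0.19 to 0.25. The members were not compared with each other in this way.

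Other genes of mature neutrophils went both ways. Of 17 tested genes of the surface and secreted list, 2 were called lower and 0 higher, where 0.667% and 0.282% of all tested genes were so called. In this list 9 had positive and 8 negative changes, and the median was 0.10. Ly6g, the classical surface marker of mouse neutrophils, had 1804, 2392 and 2845 normalised reads in the libraries labelled Otud1-/-, against 6276, 7096 and 8638 in those labelled wild type (log2 change -1.66 ± 0.18 SE, limma, adjusted p = 0.00857). Leaving out wild type 2 or wild type 3 ended the call (limma, adjusted p = 0.0703 and 0.0707), as did limma without trend and robust (adjusted p = 0.125), and the other 15 of 18 settings kept it. Per kilobase of exon its mean level was 2491 in libraries labelled Otud1-/- and 7788 in those labelled wild type, where Csf3r had 24.9 and 42.7. Cd177, a further neutrophil surface marker named after its values were seen, stood at 2503 per kilobase in libraries labelled Otud1-/- and 2173 in those labelled wild type. Ly6g and Cd177 were therefore read far above the neutrophil receptor gene in the same libraries, but the rest of the list was not. The highest mean among its other tested genes was 120.5 per kilobase, for Asprv1 in libraries labelled Otud1-/-. Cxcr2 stood at 7.42 in libraries labelled Otud1-/- and 5.94 in those labelled wild type. Asprv1 and Cxcr2 were named after their values were seen. The Ly6 genes resemble each other in sequence, and how shared reads were counted is not stated. Which cells the Ly6g reads came from was not tested.

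Fpr2, a receptor for formylated bacterial peptides, had 23.9, 13.5 and 21.2 normalised reads in the libraries labelled Otud1-/-, against 64.3, 124 and 85.7 in those labelled wild type (log2 change -2.16 ± 0.35 SE, limma, adjusted p = 0.035). Its call was lost without Otud1-/- 3 or without wild type 1, 2 or 3 (by limma at an adjusted p of 0.0654, 0.0724, 0.138 and 0.17). It was also lost with edgeR, with limma without trend and robust and with the replicate block (adjusted p = 0.0542, 0.135 and 0.141), and kept in 11 of 18 settings. Trem3, a relative of Trem1, missed the threshold at -1.93 (limma, adjusted p = 0.0936). Il1f9, which encodes interleukin 36 gamma, had 39.3, 18.0 and 19.2 in the libraries labelled Otud1-/-, against 0, 7.52 and 9.18 in those labelled wild type, with a change of 2.49 ± 0.87 SE (limma, adjusted p = 0.182).

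Of the 6 tested granule and precursor genes, 0 were called, where 0.949% of all tested genes were, and the median change was -0.23. Lactoferrin, encoded by Ltf, had 197, 19.1 and 116 normalised reads in the libraries labelled Otud1-/-, against 183, 442 and 421 in those labelled wild type, which overlapped. Gfi1, a transcription factor of granulocyte development, stood at -0.41 and Mmp25, a membrane-bound protease, at -0.25, with neither called (limma, adjusted p = 0.271 and 0.818).

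The relatives, receptors and partners of the members held no called gene, where 0.949% of all tested genes were called. Of 13 further S100 genes, 0 were called (median -0.01), and S100a10, S100a14, S100a16 and S100a1 had lower values in every library labelled Otud1-/- (log2 changes -0.54, -0.53, -0.41 and -0.40), as did 13.3% of all tested genes. Of 7 genes named as calprotectin receptors or their partners, 0 were called and 5 were lower without overlap, against the same 13.3% of all tested genes (median -0.57). Tlr4, the lipopolysaccharide receptor that also responds to S100A8, had 328, 510 and 489 normalised reads in the libraries labelled Otud1-/-, against 723, 766 and 664 in those labelled wild type (log2 change -0.72 ± 0.18 SE, limma, adjusted p = 0.0858). Its co-receptors Cd14 and Ly96 stood at -0.96 and -0.63 and the surface glycoprotein gene Bsg at -0.32.

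The counts of calls in this paragraph stand beside 0.949% of all tested genes. Of 14 G-CSF receptor signalling genes 0 were called, with 1 positive and 13 negative changes (median -0.24). Socs3, the feedback inhibitor of this receptor, had 2349, 1709 and 3796 normalised reads in the libraries labelled Otud1-/-, against 6066, 7842 and 4572 in those labelled wild type (log2 change -1.28 ± 0.33 SE, limma, adjusted p = 0.116). The kinase genes Lyn and Tyk2 stood at -0.70 and -0.38. Cish, a feedback inhibitor of STAT5, was the gene with a positive change (0.63, limma, adjusted p = 0.114). Of 13 genes of Trem1 and Clec4d signalling 0 were called, with 10 negative and 3 positive changes (median -0.52). The adaptor genes Fcer1g and Tyrobp both stood at -0.64, the lectin receptor gene Clec4e at -1.56 and the signalling adaptor Bcl10 at -0.32. The resistin family held 2 tested relatives of Retnlg, both overlapping between the labels: Retnlb of goblet cells at -0.81 and Retnla at 1.39.

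Of 14 tested neutrophil attractants and growth factors, 1 was called lower and 0 higher (median -0.06), where 0.667% and 0.282% of all tested genes were so called. Il1b, a cytokine that induces neutrophil chemokines, had 497, 394 and 433 normalised reads in the libraries labelled Otud1-/-, against 719, 858 and 738 in those labelled wild type (log2 change -0.81 ± 0.14 SE, limma, adjusted p = 0.038). Its call was lost without Otud1-/- 3 or without wild type 1, 2 or 3 (by limma at an adjusted p of 0.0834, 0.11, 0.146 and 0.163). Scaling to total reads, edgeR, the replicate block and limma without trend and robust ended it too (adjusted p = 0.0834, 0.0565, 0.149 and 0.167), which leaves 10 of 18 settings with the call. The platelet chemokine genes Pf4 and Ppbp stood at -1.09 and 1.39, and Il17a at -0.63, none of them called. Of 14 leukocyte adhesion and NADPH oxidase genes 0 were called, with 13 negative changes and 1 positive (median -0.72). The integrin chain Itgam, carried by neutrophils and macrophages, had 75.1, 68.6 and 90.8 in the libraries labelled Otud1-/-, against 141, 242 and 184 in those labelled wild type (log2 change -1.24 ± 0.25 SE, limma, adjusted p = 0.0551). Itgal and Cybb stood at -1.16 and -1.07.

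**Figure D5:**
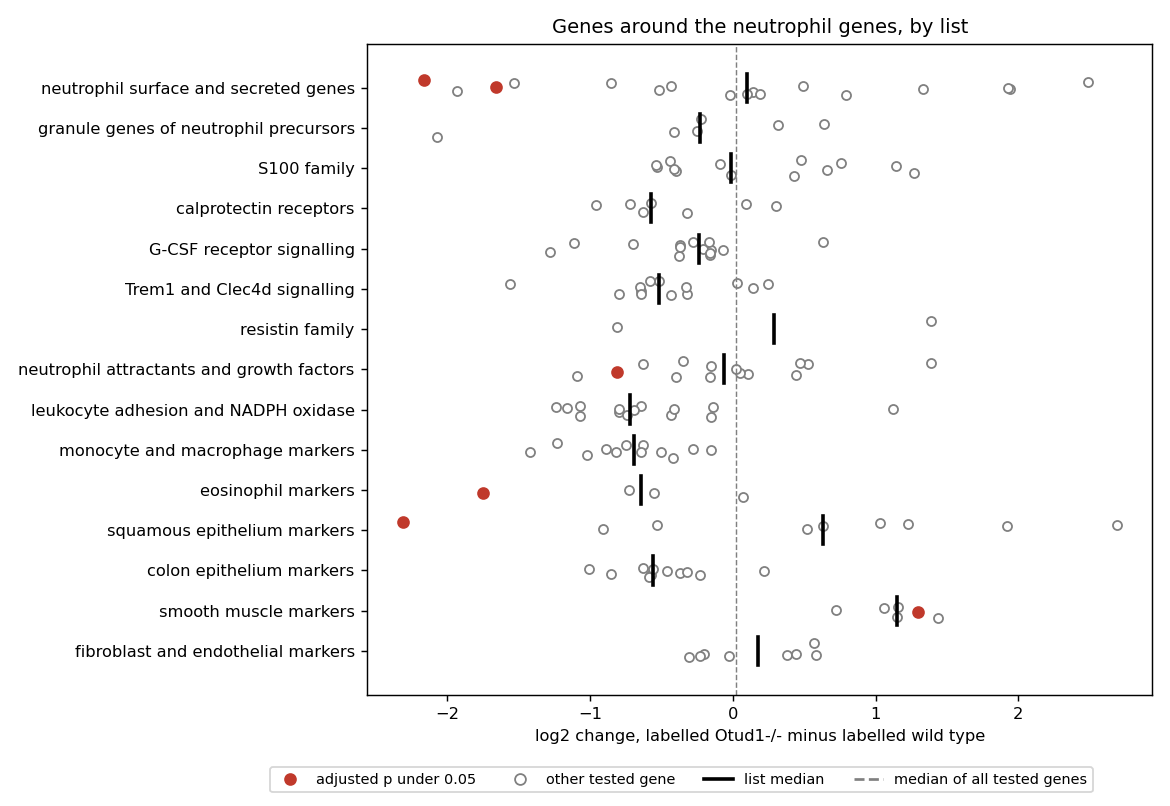
Log2 change of each tested gene, labelled Otud1-/- minus labelled wild type (horizontal axis), by list, with genes at an adjusted p under 0.05 in red, list medians as black bars and the median of all tested genes as a dashed line. Filled points are Ly6g, Fpr2, Il1b, Il5ra and Krt6b below 0 and Myh11 above 0.

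Markers of other cells in the tissue were set beside the members, and their part in the member values was not tested. The calls below stand beside 0.667% of all tested genes called lower and 0.282% called higher in libraries labelled Otud1-/-. The 12 monocyte and macrophage markers, from cells that also express Trem1 and Clec4d, had 12 negative changes with 0 called (median -0.69). Their summed level was 8324 to 11248 in libraries labelled Otud1-/- and 12748 to 16748 in those labelled wild type, with Ccr2, Csf1r, Lyz2 and C1qb at -1.02, -0.82, -0.75 and -0.63. Of 4 tested eosinophil markers, Il5ra was called lower (log2 change -1.75 ± 0.26 SE, limma, adjusted p = 0.0287). Prg2, Siglecf and Ear2 stood at -0.55, -0.73 and 0.07. The summed eosinophil level was 78.5 to 109 in libraries labelled Otud1-/- and 208 to 254 in those labelled wild type. Il5ra alone gave 42.7, 42.8 and 48.4 of it under the label Otud1-/-, against 110, 183 and 175 under wild type. The sum is therefore not separate from the call of Il5ra. Prg2 was lower in every library labelled Otud1-/-, while Siglecf and Ear2 overlapped between the labels. Epx, Ccr3 and Ear6 were not among the rows used here. Squamous epithelium, which also makes calprotectin, had 9 tested markers. Of these 1 was called lower, Krt6b (log2 change -2.31 ± 0.41 SE, limma, adjusted p = 0.0452). Positive changes were found for 6 of the squamous markers, among them Krt4 at 2.69 and Krt13 at 1.03, and Sprr1a stood at -0.91. Their summed level, 800 to 2072 in libraries labelled Otud1-/- and 1148 to 1524 in those labelled wild type, overlapped, and Trp63, Ivl and Sprr3 were not among the rows used here. The 11 colon epithelium markers had 0 calls (median -0.56), with Krt19, Krt8, Vil1 and Cldn7 between -0.63 and -0.56. Of 6 smooth muscle markers 1 was called higher, Myh11 (log2 change 1.30 ± 0.23 SE, limma, adjusted p = 0.0492). Actg2, Cnn1 and Acta2 stood at 1.44, 1.15 and 1.06. All 6 smooth muscle markers were higher in every library labelled Otud1-/- (median 1.15), as were 13% of all tested genes. The 8 fibroblast and endothelial markers had 0 calls (median 0.18), with Lum, Vwf, Col1a1 and Dcn at 0.58, 0.57, 0.44 and -0.31. Il5ra lost its call without Otud1-/- 3 or wild type 2 or 3 (by limma at an adjusted p of 0.0559, 0.129 and 0.163). Krt6b lost its call without Otud1-/- 1 or 3 or wild type 1, 2 or 3 (by limma at an adjusted p of 0.0521, 0.0839, 0.144, 0.152 and 0.175), and Myh11 without Otud1-/- 2 or 3 or wild type 1, 2 or 3 (by limma at an adjusted p of 0.0652, 0.105, 0.153, 0.108 and 0.183). Over all 18 settings Il5ra was called in 13, with the highest adjusted p at 0.163, Krt6b in 7 (0.175) and Myh11 in 8 (0.183), each being lost also with the replicate block and with limma without trend and robust.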

How the data were processed

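RNA was extracted with Trizol and libraries followed standard Illumina protocols, per the labels. The unit of the deposited table is a signal, normalised reads of each gene, and the submitters' processing notes name mm10. For aligner, counter and annotation nothing is stated. All values of a library were whole multiples of 1 step (100% of values, tolerance 0.001), and the steps were the reciprocals of median-of-ratios size factors of the recovered reads. Whether the libraries came from separate animals is not stated, so p-values reflect only their spread, which may be technical, and intervals and floors of 3 reads cover counting error only.

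Gene identifiers were matched to GENCODE vM21 (GRCm38) without version suffix (21317 of 21374 with a symbol), and exon length is the union of annotated exons. Genes with at least 1 normalised read in at least 3 libraries were tested (21281; 93 left out) with limma 3.58.1 in R 4.3.3 (trend and robust) on log2(value + 1), which understates changes of low genes, in a two-sided test of genotype alone, adjusted by Benjamini-Hochberg over all tested genes. Alternatives were other filters, pseudocounts, scalings and weights, the replicate number as a block, edgeR 4.0.16 and DESeq2 1.42.0 on recovered reads, and omitted libraries. The test scripts were tried on simulated data. Members, gene lists and alternatives were chosen with earlier results of these data known. Named genes are the members, Otud1, called list genes, the up to 4 list genes with the smallest p, and the 5 genes most like S100a9 or Csf3r; any others are named as chosen after their values were seen, and some genes the rule names are not reported here. Same-numbered replicates did not deviate together (correlations -0.264, -0.100 and -0.088), so the numbers were not taken as pairs.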

Additional observations from a re-analysis of the deposited data

How the results depend on the processing

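Among the members a setting could test, 0 were called except with DESeq2 (2) and without replicate 1 of both labels (1), and 0 in the fits without a single library. Ngp and Camp had a value in 11 of 18 settings each. Both had none with edgeR, DESeq2, a mean of at least 5 or without replicate 1 of both labels, and Ngp had none in the fits without an Otud1-/- library. S100a8, Csf3r, Clec4d and Retnlg kept their direction in all 18 alternatives, and Ngp and Camp wherever they had a value. Signs turned for S100a9 without wild type 1 (-0.37) and without replicate 1 of both labels (-0.57), for Csf3 with sample weights (0.15), without Otud1-/- 2 (0.15) and without wild type 3 (0.23), and for Trem1 after quantile normalisation (-0.13), with sample weights (-0.13) and without Otud1-/- 1 (-0.26), wild type 1 (-0.05), wild type 2 (-0.01) or replicate 1 of both labels (-0.35). Without single libraries S100a9 ranged from -0.37 to 0.64, Csf3 from -0.79 to 0.23 and Trem1 from -0.26 to 0.21. The causes were not tested.

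Over all tested genes, 202 were called, against 122 with a mean of at least 5, 118 with a pseudocount of 0.1, 416 after scaling to total reads, 0 with limma without trend and robust, 564 with sample weights, 18 with the replicate block, 62 with edgeR, 1412 with DESeq2, 394 without replicate 1 of both labels and 10 to 340 without single libraries. Of the fixed lists 6 genes were called, against 12 after quantile normalisation, 0 with limma without trend and robust, 19 with sample weights, 1 with the replicate block, 2 with edgeR, 38 with DESeq2, 17 without replicate 1 of both labels and 0 to 13 without single libraries. With the block 0 members were called, as without it. Scaling to total reads moved the median of all genes by 0.20 and gave 24.8% lower calls, against 70.3% as deposited and 60.1% after quantile normalisation. Relative to that median S100a8 stood at -1.71, Csf3r at -0.78 and Retnlg at 1.11 after it. Depth limits Ngp, Camp and Csf3 most.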
